A study of Mus musculus with 9 samples.

Results

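The genes described here encode the subunits of the transcription factor NF-kappaB and proteins that restrain it: Nfkb1, Nfkb2, Rel, Rela and Relb, the inhibitors Nfkbia, Nfkbib and Nfkbie, and Tnfaip3 and Traf1. They were chosen by gene symbol as members of the pathway, and the array probes annotated to those symbols were read. Of the 10 genes, 9 were measured, by 10 probes, among 21872 genes in all. Nfkb1 was not analysed here. Where a gene had more than 1 probe, the probe with the highest mean over the 9 arrays represented it, and Relb is the one member with a second probe.

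RNA came from granulocyte-monocyte progenitors (GMPs), the marrow precursors of neutrophils and monocytes, and was measured on single-colour Agilent SurePrint G3 mouse arrays. LeuA (AE1) and LeuB (AE3) cells came from C57BL/6 recipients of spleen cells from moribund mice with a Tet2-/-:AE leukaemia, which lack the DNA dioxygenase Tet2 and carry AE, the fusion AML1-ETO. WT cells came from C57BL/6 recipients of wild-type bone marrow. All recipients were sampled 1 month after transplantation, and in every group the gate was Lin-, cKit+, Sca1-, CD16/32+ and CD150-. Each group has 3 arrays, described in the labels as biological triplicates, and whether an array holds 1 recipient or a pool is not stated. Each leukaemia goes back to 1 primary mouse, so its arrays are recipients of 1 leukaemia and not independent leukaemias. The leukaemic grafts were spleen cells and the WT graft was marrow, and graft tissue and genotype cannot be told apart. For the LeuB arrays the title and source name LeuB, while another label field on the transplanted cells names LeuA, and the grouping follows the title.

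NF-kappaB acts as dimers of Rel-homology proteins. In resting cells, IkB proteins such as those encoded by Nfkbia, Nfkbib and Nfkbie hold the dimers in the cytoplasm. In the canonical pathway, receptors for TNF, IL-1 or microbial products activate the IKK complex, which marks IkB for destruction and frees RelA and c-Rel dimers. In the alternative pathway, receptors such as the lymphotoxin beta receptor stabilise the kinase NIK, and the Nfkb2 product p100 is processed to p52, the usual partner of RelB. Several of these genes, among them Nfkb2, Relb, Nfkbia, Nfkbie, Tnfaip3 and Traf1, are textbook targets of NF-kappaB itself.

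The sorted cells differed widely between the groups. By the test described below, 17.9% of all genes were higher and 18.9% lower in LeuA than in WT. For LeuB the shares were 21.8% and 20.4%. Of the 13 GMP markers examined, 11 fell in each leukaemia against WT, and the mean log2 intensity of these markers was 8.87 to 8.96 in LeuA, 8.74 to 9.14 in LeuB and 14.27 to 14.45 in WT. The myeloperoxidase gene Mpo averaged 7.90 in LeuA, 7.57 in LeuB and 18.24 in WT, the highest value of the data. The gate marker Kit averaged 12.43 in LeuA, 12.38 in LeuB and 12.60 in WT and did not pass the test. The genes of the other gate marker, CD16/32, were lower: Fcgr3 averaged 9.97 in LeuA, 10.32 in LeuB and 11.75 in WT, and Fcgr2b 9.23 in LeuA, 9.92 in LeuB and 10.87 in WT. Erythroid markers moved the other way: 5 of the 7 measured rose in LeuA and 7 of 7 in LeuB, with list means of 11.53 to 11.78 in LeuA, 11.78 to 12.03 in LeuB and 7.80 to 8.22 in WT. Of 8 mast cell or basophil markers, 5 rose in each leukaemia, while 2 fell in LeuA and 3 in LeuB. Fcer1a, the alpha chain of the IgE receptor, averaged 15.71 in LeuA, 12.98 in LeuB and 8.37 in WT, whereas the basophil protease gene Mcpt8 averaged 8.96 in LeuA, 8.51 in LeuB and 11.32 in WT. The label GMP is used here for the gate, since 11 of the 13 GMP markers were lower in each leukaemia. In these bulk samples, fewer cells of a type and less RNA per cell cannot be told apart. The part of these marker shifts in the results on NF-kappaB genes was not tested.

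The arrays lie on 2 slides, the first with all WT and LeuA arrays and LeuB 1, the second with LeuB 2 and LeuB 3 alone. The values are normalized log2 intensities between 5.66 and 18.24, with array medians of 7.02 to 7.04, and they come without detection flags. Where a group mean lies below 7.02, the lowest array median, it is not known whether the probe was above background, and the size of a difference that rests on it is not read as exact. Among the genes named below this holds for Rel in every group, and for Tnfrsf1a, Ltbr, Tlr2, Tnfrsf1b, Ccnd1, Vcam1 and Ikbke in both leukaemias. It holds for Tirap and Klf4 in LeuA, for Map3k14 in LeuB, and for Hspa1a in LeuB and WT. In WT it also holds for Il18r1, Otud7b, Egr1, Ier5, Zbtb46 and Rnf222. Pax5 and Ms4a1, cited as B cell markers, are as low in every group. LeuB 3 and WT 1 stood apart from their groups in mature neutrophil genes, whose mean was 9.22 in LeuB 3 and 6.89 and 7.19 in the other LeuB arrays, and 9.11 in WT 1 and 10.75 and 10.67 in the other WT arrays. Groups were compared with limma over all genes, and "called" means a p under 0.05 after Benjamini-Hochberg adjustment over all of them. Both comparisons with WT use the same WT arrays, so their values are given side by side and are not separate evidence.

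Relb, Tnfaip3, Traf1 and Nfkb2 were the members with the largest differences from WT, and all were higher in both leukaemias. Relb is counted here by its chosen probe, and its other probe was not called. In LeuA, 7 of the 9 measured members rose and 0 fell, while 17.9% of all genes were called higher and 18.9% lower, 36.8% in all. In LeuB, 6 of 9 rose and 0 fell, beside 21.8% of all genes higher and 20.4% lower, 42.3% in all. At an unadjusted p under 0.05 the counts were 8 higher and 0 lower in LeuA, and 7 higher and 0 lower in LeuB. The median log2 difference of the members was 0.72 in LeuA and 1.08 in LeuB, against 0.01 and -0.01 over all genes. All 3 LeuA arrays lay above all 3 WT arrays for 8 members and below them for 0, patterns shown by 24.8% and 24.7% of all genes, 49.5% together. All 3 LeuB arrays lay above WT for 7 members and below for 0, beside 27.2% and 25.2% of all genes, 52.4% together. Leaving out WT 1 and LeuB 3 together kept every one of these calls against WT. The plot of the members by array shows the levels.

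**Figure D1:**
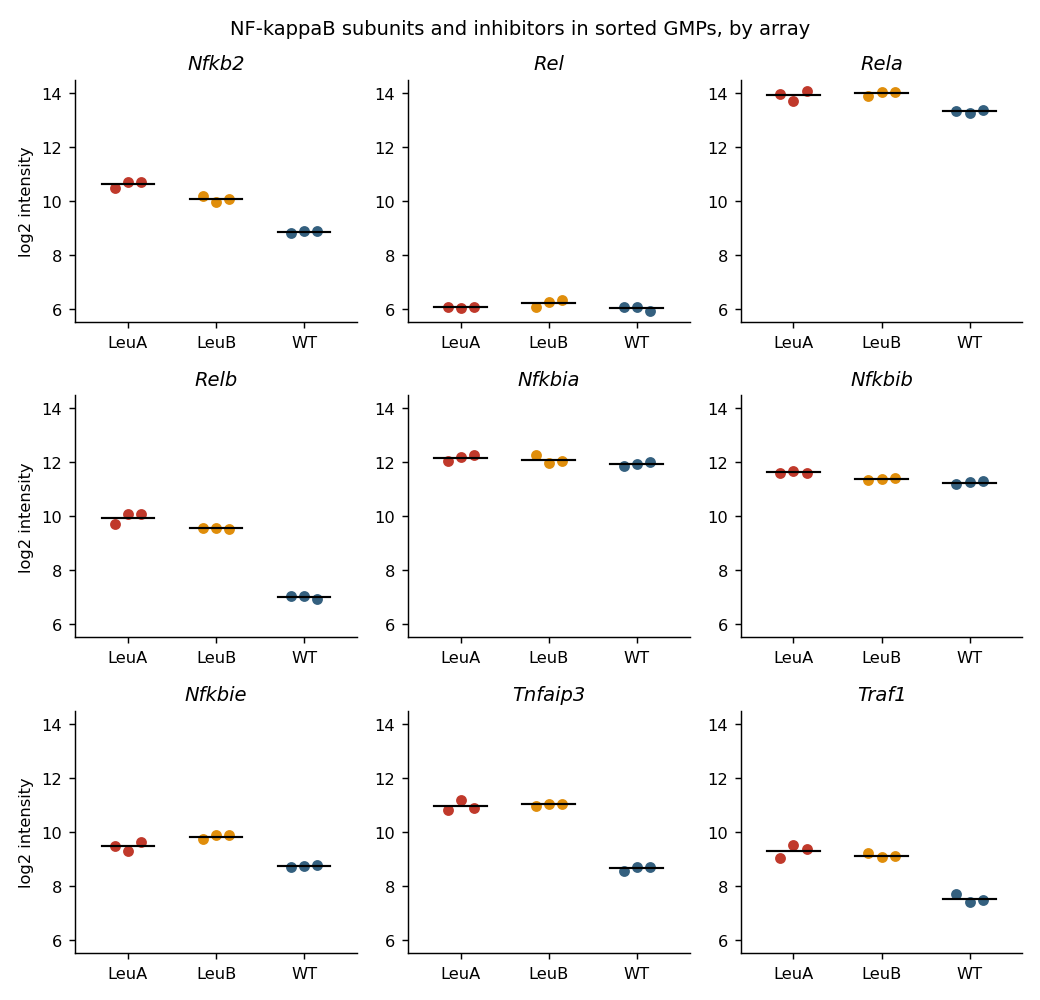
Log2 intensity (vertical axis) of the 9 measured NF-kappaB genes on each array, in LeuA, LeuB and WT from left to right. Points are arrays, 3 per group, and bars are group means. Relb, Tnfaip3, Traf1, Nfkb2, Nfkbie and Rela lie higher in both leukaemias than in WT without overlap, and Rel stays between 5.91 and 6.34 on all arrays. Relb is shown by its chosen probe. Levels of different genes come from different probes and are not compared.

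Promoter windows of members are shown because members that rose, and members that did not pass the test, both hold matches to the kappaB consensus, the sequence that NF-kappaB dimers bind. The windows are RefSeq promoters of the mouse build GRCm38.p6, from 250 bases before to 50 after each annotated start, printed 5′ to 3′ on the strand of the gene, and capitals mark matches to the consensus on either strand. For Nfkb2 and Tnfaip3 the window with the most matches is printed. Nfkb2, at chr19:46304487-46304786 on the plus strand, has stretches that begin 39 and 11 bases before the start. Tnfaip3, at chr10:19015361-19015660 on the minus strand, has them at 125 and 12 bases before it. Nfkbie, at chr17:45555450-45555749 on the plus strand, has 1 at 106 bases. Nfkbia, at chr12:55492598-55492897 on the minus strand, has 1 at 29 bases, and Rel, at chr11:23770920-23771219 on the minus strand, has 1 at 92 bases. Traf1, at chr2:34961723-34962022 on the minus strand, is shown as a member that rose with no match in its window.
Nfkb2: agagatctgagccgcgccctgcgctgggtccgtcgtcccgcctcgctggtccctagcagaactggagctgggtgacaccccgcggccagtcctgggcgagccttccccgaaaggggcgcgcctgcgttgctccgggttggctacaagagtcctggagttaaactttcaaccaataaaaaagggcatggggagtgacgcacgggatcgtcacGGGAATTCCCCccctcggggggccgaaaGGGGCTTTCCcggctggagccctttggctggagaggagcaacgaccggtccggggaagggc
Tnfaip3: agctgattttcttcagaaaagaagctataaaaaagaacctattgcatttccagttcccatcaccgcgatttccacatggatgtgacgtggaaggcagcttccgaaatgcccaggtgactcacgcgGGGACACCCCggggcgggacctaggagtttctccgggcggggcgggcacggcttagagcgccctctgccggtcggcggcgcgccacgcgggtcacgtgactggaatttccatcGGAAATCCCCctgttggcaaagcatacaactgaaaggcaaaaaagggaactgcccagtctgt
Nfkbie: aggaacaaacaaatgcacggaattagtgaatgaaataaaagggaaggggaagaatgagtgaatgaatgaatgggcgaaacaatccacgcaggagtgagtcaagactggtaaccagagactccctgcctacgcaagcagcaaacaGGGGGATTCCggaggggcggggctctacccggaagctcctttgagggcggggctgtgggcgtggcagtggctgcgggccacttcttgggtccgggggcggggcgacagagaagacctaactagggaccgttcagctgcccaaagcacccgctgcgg
Nfkbia: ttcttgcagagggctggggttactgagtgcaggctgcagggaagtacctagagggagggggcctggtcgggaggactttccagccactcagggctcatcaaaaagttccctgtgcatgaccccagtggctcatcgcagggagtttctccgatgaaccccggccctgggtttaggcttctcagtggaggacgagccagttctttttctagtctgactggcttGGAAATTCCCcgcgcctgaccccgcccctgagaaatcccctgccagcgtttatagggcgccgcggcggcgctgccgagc
Rel: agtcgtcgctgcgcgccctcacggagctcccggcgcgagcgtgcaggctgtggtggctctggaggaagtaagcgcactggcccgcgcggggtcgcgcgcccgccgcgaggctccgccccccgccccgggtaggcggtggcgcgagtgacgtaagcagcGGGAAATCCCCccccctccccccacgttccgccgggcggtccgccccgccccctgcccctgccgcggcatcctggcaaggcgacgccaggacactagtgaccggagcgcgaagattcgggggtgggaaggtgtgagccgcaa
Traf1: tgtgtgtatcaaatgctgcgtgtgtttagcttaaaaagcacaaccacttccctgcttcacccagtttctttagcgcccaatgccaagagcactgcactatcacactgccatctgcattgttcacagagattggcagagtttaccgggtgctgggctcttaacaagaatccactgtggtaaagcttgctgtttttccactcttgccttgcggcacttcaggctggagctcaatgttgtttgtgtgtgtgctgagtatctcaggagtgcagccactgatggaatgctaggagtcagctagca

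Promoter windows were found for 8 members, 11 windows in all, and none was found for Relb. A match to the consensus was present in 7 of the 11 windows, whereas 4.51% of 32851 windows over all genes hold one. By gene, it was present in 5 of the 8, beside 5.14% of 27025 genes. The Nfkb2 windows that start at chr19:46305445 and chr19:46305680 overlap and share a match, so these windows are not independent. Rela, Nfkbib and Traf1 had no consensus match in their windows. A match is a description of the letters and not of binding. Set beside the levels described next, Nfkb2, Tnfaip3 and Nfkbie hold a match and rose in both leukaemias. Rel and Nfkbia hold one and were not called in either, and Rela and Traf1 hold none and rose in both.

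Among the subunits, Nfkb2 and the chosen Relb probe showed larger differences than Rela, and Rel stayed near the low end of the scale. Relb and Nfkb2 encode the partners of the alternative pathway. Relb had log2 intensities of 9.70, 10.08 and 10.07 in LeuA, 9.58, 9.56 and 9.54 in LeuB, and 7.04, 7.07 and 6.96 in WT. The leukaemic arrays all lay above the WT arrays, and the means were 9.95 ± 0.22 in LeuA, 9.56 ± 0.02 in LeuB and 7.02 ± 0.06 in WT (SD, n = 3 each). The difference from WT was 2.93 on the log2 scale in LeuA (SE 0.10, limma adjusted p = 1.29e-08), a 7.63-fold higher intensity. It was 2.54 in LeuB (SE 0.10, limma adjusted p = 3.45e-08), or 5.83-fold. The WT mean equals the lowest array median, 7.02, within rounding, so these sizes are not read as exact. Of all 21872 genes, 3.16% differed more from WT in LeuA and 4.12% in LeuB.

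The second Relb probe did not show this rise. It read 8.78, 8.78 and 8.79 in LeuA, 8.85, 8.39 and 8.08 in LeuB, and 8.77, 8.66 and 8.68 in WT. LeuA lay just above the highest WT array, and the LeuB arrays spread widely, with LeuB 1 the highest and LeuB 3 the lowest of all 9 arrays. Its difference from WT was 0.08 in LeuA (SE 0.16, limma adjusted p = 0.785) and -0.26 in LeuB (SE 0.16, limma adjusted p = 0.236). In WT the second probe was the brighter, at a mean of 8.70 against 7.02. The first probe has the higher mean over the 9 arrays only through the leukaemic arrays. The probe with the higher mean is annotated to the RefSeq transcript of Relb and the other to a different sequence record. Which part of the transcript each one reads was not analysed here. The mean of both probes was 1.51 higher in LeuA (limma adjusted p = 1.85e-06) and 1.14 higher in LeuB (limma adjusted p = 1.34e-05). That mean contains the first probe, so it is not separate evidence of a rise. Whether Relb rose, and by how much, depends on the probe.

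**Figure D2:**
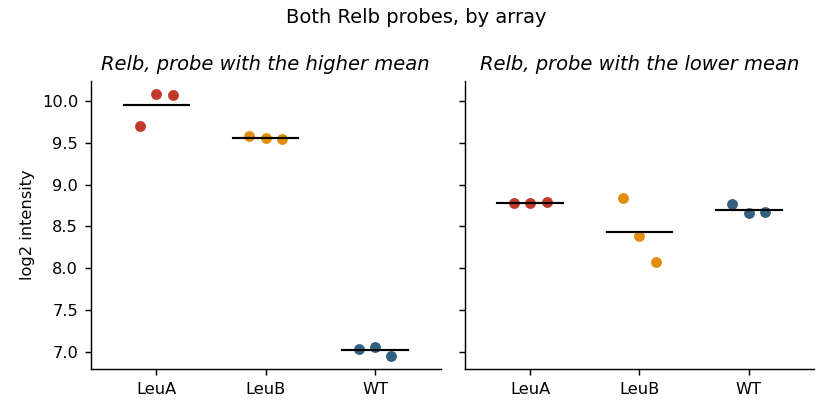
Log2 intensity (vertical axis) of the Relb probe with the higher mean (left) and of the other Relb probe (right) on each array, in LeuA, LeuB and WT. Points are arrays, 3 per group, and bars are group means. The first probe averages 9.95 in LeuA, 9.56 in LeuB and 7.02 in WT, and the other probe averages 8.78 in LeuA, 8.44 in LeuB and 8.70 in WT.

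Nfkb2, the gene of p100 and p52, had log2 intensities of 10.48, 10.70 and 10.70 in LeuA, 10.18, 9.97 and 10.08 in LeuB, and 8.83, 8.89 and 8.87 in WT. The 3 groups did not overlap, with LeuA highest and WT lowest. Against WT the difference was 1.76 in LeuA (SE 0.08, limma adjusted p = 9.80e-08, 3.40-fold) and 1.21 in LeuB (SE 0.08, limma adjusted p = 1.43e-06, 2.32-fold). Its promoter window, printed above, holds the consensus at more than 1 position.

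Rela, whose product p65 is the main activating subunit of the canonical pathway, had log2 intensities of 13.97, 13.70 and 14.08 in LeuA, 13.90, 14.06 and 14.05 in LeuB, and 13.33, 13.25 and 13.38 in WT. The leukaemic arrays lay above all WT arrays and overlapped each other. The difference was 0.60 in LeuA (SE 0.10, limma adjusted p = 0.00103, 1.51-fold) and 0.68 in LeuB (SE 0.10, limma adjusted p = 0.000402, 1.60-fold). Changes of at least this size were common, since 22.3% of all genes differed more from WT in LeuA and 21.1% in LeuB.

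Rel, the gene of c-Rel, had log2 intensities of 6.05, 6.03 and 6.08 in LeuA, 6.07, 6.26 and 6.34 in LeuB, and 6.09, 6.08 and 5.91 in WT. These values lie close to the lowest of the data, 5.66, and the groups overlapped. The difference from WT was 0.03 in LeuA, with a 95% interval of -0.16 to 0.21 (limma adjusted p = 0.861). In LeuB it was 0.19, with an interval of 0.00 to 0.38 (limma adjusted p = 0.0934). Without LeuB 1 the LeuB difference was 0.27 and passed the test (limma adjusted p = 0.0155). Whether the probe can resolve a change at this signal was not tested.

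Of the IkB inhibitors among the members, Nfkbie rose in both leukaemias, Nfkbib rose in LeuA, and Nfkbia did not pass the test in either. Nfkbie, the gene of IkB-epsilon, had log2 intensities of 9.49, 9.28 and 9.62 in LeuA, 9.73, 9.88 and 9.87 in LeuB, and 8.72, 8.73 and 8.78 in WT. The groups did not overlap, and LeuB was highest. The difference from WT was 0.72 in LeuA (SE 0.09, limma adjusted p = 0.000144, 1.65-fold) and 1.08 in LeuB (SE 0.09, limma adjusted p = 7.46e-06, 2.12-fold).

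Nfkbib, the gene of IkB-beta, had log2 intensities of 11.62, 11.68 and 11.60 in LeuA, 11.35, 11.39 and 11.41 in LeuB, and 11.19, 11.27 and 11.30 in WT. No groups overlapped, although LeuB exceeded the highest WT array by little. The difference from WT was 0.38 in LeuA (SE 0.06, limma adjusted p = 0.000536, 1.31-fold) and 0.13 in LeuB (SE 0.06, limma adjusted p = 0.106). After a further quantile normalization the LeuB difference was 0.17 and passed the test (limma adjusted p = 0.0445).

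Nfkbia, the gene of IkB-alpha, an inhibitor that NF-kappaB itself induces, had log2 intensities of 12.06, 12.21 and 12.26 in LeuA, 12.29, 11.97 and 12.06 in LeuB, and 11.88, 11.92 and 12.03 in WT. LeuA lay above WT with a narrow gap, and LeuB overlapped it. The difference was 0.23 in LeuA, with a 95% interval of 0.02 to 0.45 (limma adjusted p = 0.0935), and 0.16 in LeuB, with an interval of -0.06 to 0.38 (limma adjusted p = 0.214). With the slide as a block, where the LeuB arm is LeuB 1 alone, both passed the test, at 0.23 in LeuA (limma adjusted p = 0.0357) and 0.35 in LeuB (limma adjusted p = 0.0346), and within slide 1 alone the adjusted p was 0.0498 for LeuA and 0.0497 for LeuB. LeuB 1 had the highest Nfkbia value of its group, and without it the LeuA difference also passed (limma adjusted p = 0.0357).

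Tnfaip3 and Traf1 rose in both leukaemias. Tnfaip3 encodes A20, a ubiquitin-editing enzyme that shuts down signalling from TNF and Toll-like receptors to IKK. It had log2 intensities of 10.79, 11.17 and 10.87 in LeuA, 10.97, 11.05 and 11.03 in LeuB, and 8.54, 8.71 and 8.69 in WT. The leukaemias overlapped each other and lay more than 2 log2 units above WT. The difference was 2.30 in LeuA (SE 0.10, limma adjusted p = 7.05e-08, 4.93-fold) and 2.37 in LeuB (SE 0.10, limma adjusted p = 5.56e-08, 5.18-fold).

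Traf1, an adaptor that joins TNF receptor complexes and binds Traf2, had log2 intensities of 9.03, 9.52 and 9.37 in LeuA, 9.20, 9.05 and 9.12 in LeuB, and 7.70, 7.39 and 7.46 in WT. The leukaemias again overlapped each other and lay above WT. The difference was 1.79 in LeuA (SE 0.13, limma adjusted p = 2.75e-06, 3.45-fold) and 1.60 in LeuB (SE 0.13, limma adjusted p = 5.78e-06, 3.04-fold). Of all genes, 6.73% differed more from WT than Traf1 in LeuA and 7.73% in LeuB, and for Tnfaip3 the shares were 4.72% and 4.59%.

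Markers of other cells were read beside these rises. RelB and p52 are abundant in B cells and dendritic cells, and the share of such cells in the sorted samples was not measured. The 7 measured B cell markers averaged 6.61 to 6.79 in LeuA, 7.09 to 7.32 in LeuB and 7.67 to 7.85 in WT, with 0 of 7 higher in either leukaemia, 3 lower in LeuA and 2 lower in LeuB. Pax5 and Ms4a1 lay between 6.07 and 6.63 on all arrays, and Cd79b averaged 7.45 in LeuA, 9.41 in LeuB and 12.15 in WT. The 8 dendritic cell markers averaged 7.85 to 7.94 in LeuA, 7.90 to 8.17 in LeuB and 8.86 to 8.93 in WT, and 1 of the 8, Zbtb46, rose in each leukaemia and 3 fell. Mast cell or basophil markers averaged 12.12 to 12.55 in LeuA, 11.51 to 11.94 in LeuB and at most 10.37 in WT. Immediate early genes, which respond to handling and sorting as well as to signalling, averaged 8.29 to 8.39 in LeuA, 8.10 to 8.26 in LeuB and 7.59 to 7.63 in WT. Of the 17 measured, 9 were called higher in LeuA with 2 lower, and 8 were called higher in LeuB with 2 lower, beside 36.8% of all genes called in LeuA and 42.3% in LeuB. Those that fell, named after their values were seen, were Klf4 (-1.38 in LeuA and -1.03 in LeuB) and Nr4a1 (-1.07 and -1.12). Among those that rose, Klf6 was 3.00 and 3.61 higher in LeuA and LeuB, Jun 2.59 and 1.51, Egr1 1.73 and 1.80, and Ier5 1.53 and 1.59. The part of B cells, dendritic cells, and the mast cell and immediate early shifts in the rises of Tnfaip3, Relb and Nfkb2 was not tested.

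LeuB and LeuA differed in 4 of the 9 members by the direct test. Nfkbie was higher in LeuB, and Nfkb2, Relb and Nfkbib were lower, beside 6.91% of all genes called higher in LeuB and 5.36% lower, 12.3% in all. The same 1 and 3 members had groups that did not overlap, a pattern of 16.4% of all genes for higher and 13.8% for lower, 30.2% together. Nfkb2 averaged 10.08 ± 0.10 in LeuB and 10.63 ± 0.12 in LeuA (SD, n = 3 each), a difference of -0.55 (SE 0.08, limma adjusted p = 0.00273). Relb averaged 9.56 ± 0.02 in LeuB and 9.95 ± 0.22 in LeuA, a difference of -0.39 (SE 0.10, limma adjusted p = 0.0366). Nfkbib averaged 11.38 ± 0.03 in LeuB and 11.64 ± 0.04 in LeuA, a difference of -0.25 (SE 0.06, limma adjusted p = 0.0235). Nfkbie averaged 9.83 ± 0.09 in LeuB and 9.46 ± 0.17 in LeuA, a difference of 0.37 (SE 0.09, limma adjusted p = 0.0308).

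Of the 4 calls, 3 depended on single arrays. An effect of the slide on the calls cannot be told apart from the lower precision with 1 LeuB array on slide 1. With the slide as a block, which leaves LeuB 1 as the LeuB array compared on slide 1, 0 of 9 members passed: Nfkb2 differed by -0.45 (limma adjusted p = 0.0586), Nfkbib by -0.28 (0.104), Nfkbie by 0.26 (0.352) and Relb by -0.37 (0.271). Leaving out any 1 array kept the call of Nfkb2, at adjusted p-values of 0.00176 to 0.0153. The call of Nfkbib was lost without LeuA 1, LeuA 2, LeuA 3, LeuB 2 or LeuB 3, at adjusted p-values of 0.0520 to 0.0890. The call of Nfkbie was lost without LeuA 1, LeuA 2, LeuB 2, LeuB 3, WT 2 or WT 3, at 0.0518 to 0.116, and that of Relb without LeuA 2, LeuA 3, LeuB 2, LeuB 3 or any 1 of the WT arrays, at 0.0521 to 0.120. Slide and leukaemia cannot be told apart for LeuB 2 and LeuB 3.

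For the other members the direct test gave intervals around 0. The LeuB minus LeuA difference was 0.07 for Tnfaip3 (95% interval -0.16 to 0.30), 0.08 for Rela (-0.14 to 0.31), -0.07 for Nfkbia (-0.29 to 0.14), -0.18 for Traf1 (-0.48 to 0.11) and 0.17 for Rel (-0.02 to 0.35). Without LeuB 1 the difference in Rel was 0.24 and passed the test (limma adjusted p = 0.0442). The plot of differences sets the intervals side by side.

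**Figure D3:**
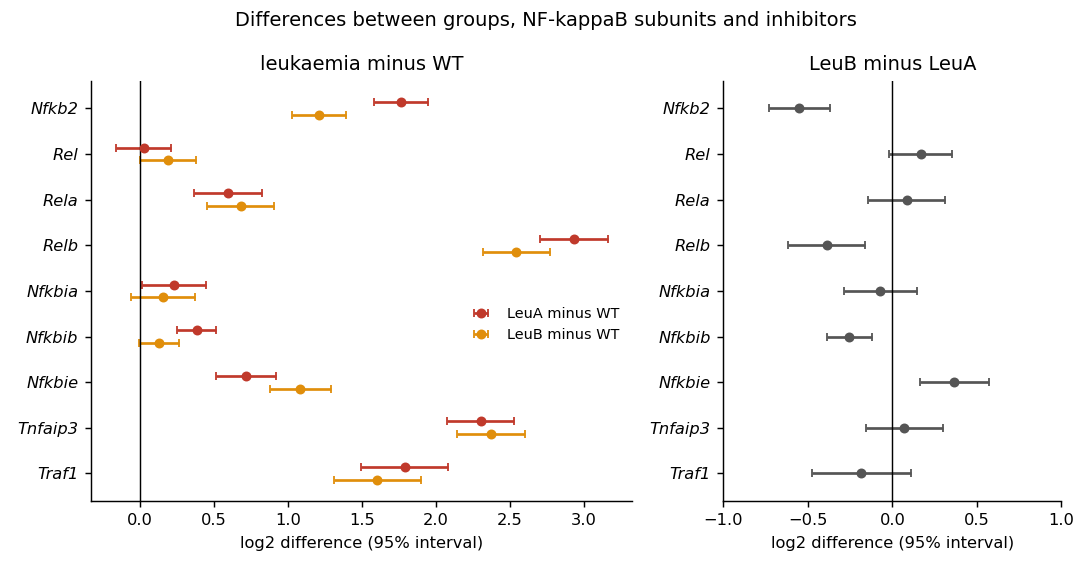
Log2 difference (horizontal axis) of each measured NF-kappaB gene in LeuA minus WT and LeuB minus WT (left panel) and in LeuB minus LeuA (right panel). Points are fitted differences and bars are 95% intervals, from 3 arrays per group. Relb, by its chosen probe, reaches 2.93 and 2.54, Tnfaip3 2.30 and 2.37, and the LeuB minus LeuA differences lie between -0.55 and 0.37.

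Receptors that feed the pathway fell more often than they rose. In LeuA 2 of the 19 receptors measured were higher and 10 lower, and in LeuB 2 were higher and 11 lower. Their median differences were -0.29 and -0.41. The shares over all genes were 17.9% higher and 18.9% lower in LeuA, and 21.8% higher and 20.4% lower in LeuB. Tnfrsf1a, the gene of TNF receptor 1, had log2 intensities of 6.05, 6.20 and 6.27 in LeuA, 6.24, 6.38 and 6.55 in LeuB, and 13.22, 13.17 and 13.15 in WT. Ltbr, the lymphotoxin beta receptor that feeds the alternative pathway, had 6.14, 6.22 and 6.36 in LeuA, 6.37, 6.75 and 6.94 in LeuB, and 11.95, 11.94 and 11.77 in WT. Both were near the low end of the scale in the leukaemias and far from it in WT. The difference of Tnfrsf1a from WT was -7.00 in LeuA (limma adjusted p = 5.41e-11) and -6.79 in LeuB (limma adjusted p = 6.60e-11). That of Ltbr was -5.65 in LeuA (limma adjusted p = 1.20e-09) and -5.20 in LeuB (limma adjusted p = 1.99e-09). With readings this low in the leukaemias, these sizes are not exact.

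Tlr2, a receptor for bacterial lipoproteins, fell (-3.39 in LeuA and -3.55 in LeuB), and so did Tnfrsf1b, TNF receptor 2 (-3.03 and -3.08), both with leukaemic means below 7.02. Il1r1, the signalling receptor for IL-1, was an exception. It had log2 intensities of 8.08, 8.75 and 8.83 in LeuA, 9.31, 9.57 and 9.63 in LeuB, and 7.33, 7.24 and 7.25 in WT, and the groups did not overlap. The difference from WT was 1.28 in LeuA (SE 0.18, limma adjusted p = 0.000325) and 2.23 in LeuB (SE 0.18, limma adjusted p = 6.24e-06). LeuB exceeded LeuA by 0.95 (limma adjusted p = 0.0102), a call lost with the slide as a block (0.75, limma adjusted p = 0.186) and without WT 1 and LeuB 3 (0.88, limma adjusted p = 0.0702). The other receptor that rose, named after its values were seen, was Il18r1, a chain of the IL-18 receptor, at 1.58 in LeuA and 1.26 in LeuB.

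**Figure D4:**
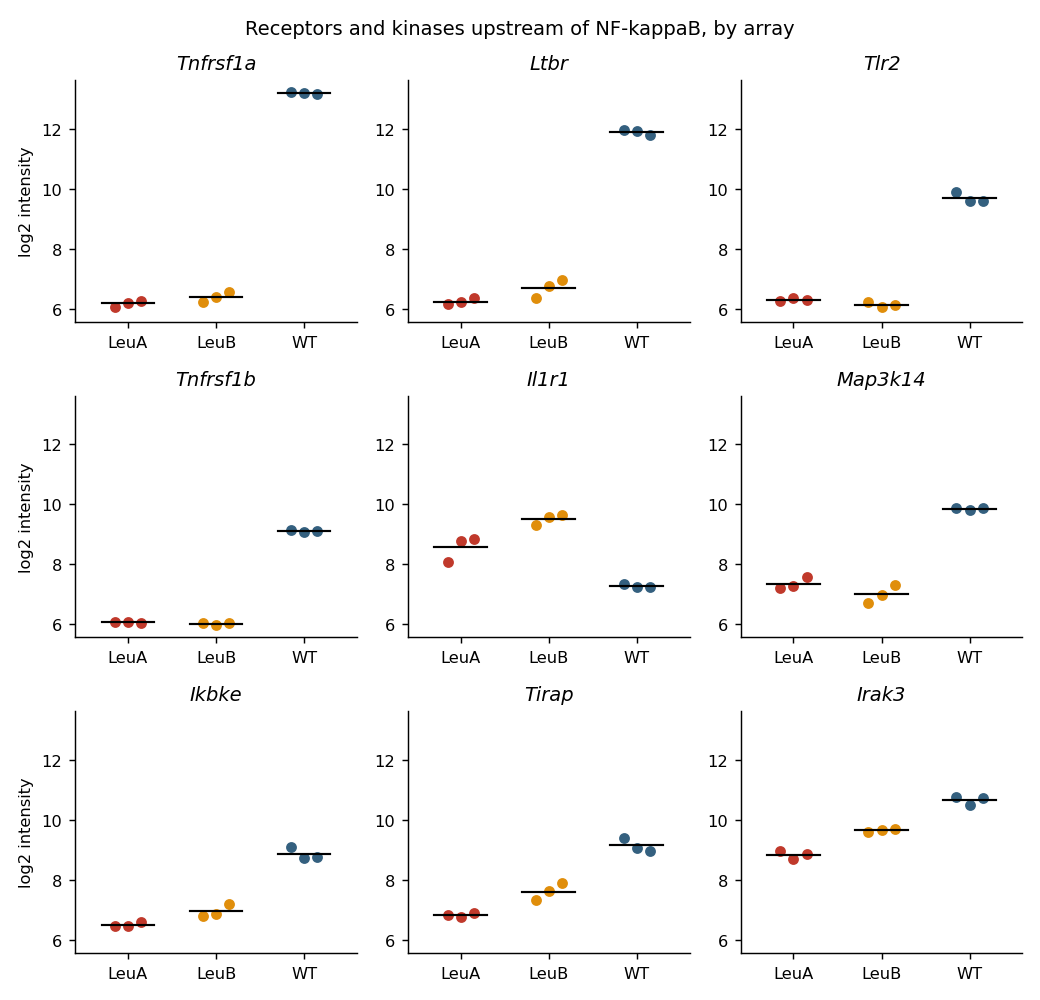
Log2 intensity (vertical axis) of receptors, kinases and adaptors upstream of NF-kappaB on each array, in LeuA, LeuB and WT. Points are arrays, 3 per group, and bars are group means. Tnfrsf1a and Ltbr lie between 6.05 and 6.94 in the leukaemias and between 11.77 and 13.22 in WT, while Il1r1 lies higher in both leukaemias.

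Kinases and adaptors rose more often than they fell. In LeuA 16 of the 29 measured were higher and 7 lower, and in LeuB 14 were higher and 7 lower. Their median differences were 0.31 and 0.23. Beside these counts, 17.9% of all genes were higher and 18.9% lower in LeuA, and 21.8% and 20.4% in LeuB. The mean level of the list overlapped between the groups, at 9.66 to 9.71 in LeuA, 9.65 to 9.71 in LeuB and 9.62 to 9.74 in WT. The largest changes on this list were falls. Map3k14, the gene of NIK, had log2 intensities of 7.21, 7.26 and 7.57 in LeuA, 6.71, 6.96 and 7.32 in LeuB, and 9.87, 9.81 and 9.87 in WT. NIK is the kinase that drives processing of p100, and its transcript differed from WT by -2.50 in LeuA (SE 0.15, limma adjusted p = 7.00e-07) and by -2.86 in LeuB (SE 0.15, limma adjusted p = 2.67e-07). Ikbke, an IKK-related kinase, fell (-2.36 in LeuA and -1.92 in LeuB). The Toll-like receptor adaptor Tirap fell (-2.32 and -1.54), as did Irak3, which restrains Toll-like receptor signalling (-1.84 and -1.02).

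Genes on this list that rose, named after their values were seen, include Traf5, a TNF receptor adaptor, at 1.44 in LeuA and 0.84 in LeuB, and Tab3, which bridges ubiquitin chains to the kinase TAK1, at 1.25 and 1.28. Tab1, an activator of TAK1, was 1.07 and 1.05 higher, Rnf31, the catalytic part of the linear ubiquitin ligase, 0.98 and 0.89, Birc3, the ubiquitin ligase cIAP2, 0.77 and 0.86, and Myd88, the common adaptor of IL-1 and Toll-like receptors, 0.73 and 0.61. The IKK subunits Ikbkb and Ikbkg, also named after the fact, were not called. Chuk, on the same list, was not among the genes measured. Ikbkb differed by -0.20 in LeuA and -0.22 in LeuB (limma adjusted p = 0.162 and 0.0996). With the slide as a block, where LeuB rests on 1 array, the LeuB difference of Ikbkb was -0.39. Ikbkg differed by 0.31 and 0.30 (limma adjusted p = 0.0521 and 0.0526), and several alternatives, such as leaving out LeuB 1, called Ikbkg.

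Of the 20 further inhibitors measured, 2 were higher and 6 lower in LeuA, and 3 were higher and 8 lower in LeuB, with median differences of -0.16 and -0.05. Over all genes 36.8% were called in LeuA and 42.3% in LeuB. With the slide as a block the LeuB counts were 1 and 5. Pdlim2, a ubiquitin ligase for nuclear RelA, fell (-2.58 in LeuA and -1.88 in LeuB), and so did Tax1bp1, a partner of A20 (-0.97 and -1.05). Bcl3, an atypical IkB that binds p50 and p52 dimers in the nucleus, differed by -0.59 in LeuA (limma adjusted p = 0.0241) and -1.26 in LeuB (limma adjusted p = 0.000264). The LeuA call of Bcl3 was lost without WT 1, at a difference of -0.47 (limma adjusted p = 0.0898), and on slide 1 alone (limma adjusted p = 0.0528). Nfkbid, another IkB gene and named after its values were seen, differed by -0.49 in LeuA and -0.97 in LeuB, both called. Otud7b, a deubiquitinase that limits the alternative pathway, was 0.76 and 1.05 higher.

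Genes listed as NF-kappaB targets, a list that leaves out the members, showed no common direction. Some of them read below 7.02 in every group, where it is not known whether the probe was above background. Against WT, 17.9% of all genes were higher and 18.9% lower in LeuA, and 21.8% and 20.4% in LeuB. Of the 38 targets measured, 9 were higher and 14 lower in LeuA, and 12 were higher and 10 lower in LeuB. The median differences of the targets were -0.08 and 0.09. With the slide as a block, 5 rose in LeuB. The cyclin D1 gene Ccnd1 fell (-3.28 in LeuA and -3.18 in LeuB), and so did the adhesion molecule gene Vcam1 (-2.83 and -2.73), the transcription factor gene Irf1 (-2.19 and -2.86) and the stress gene Gadd45b (-1.48 and -2.33). A second Irf1 probe differed by -0.10 in LeuA and -0.21 in LeuB. Bcl2, named after its values were seen, also fell (-1.86 in LeuA and -1.72 in LeuB). Tnfaip2, a TNF-induced gene, was 1.19 and 2.04 higher. Targets that rose, named after their values were seen, include Ier3, an early response gene, at 1.94 in LeuA and 1.33 in LeuB, Fth1, ferritin heavy chain, at 1.78 and 1.56, Bcl2l1, which encodes the survival protein Bcl-xL, at 1.39 and 1.83, and Junb at 1.32 and 0.88.

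**Figure D5:**
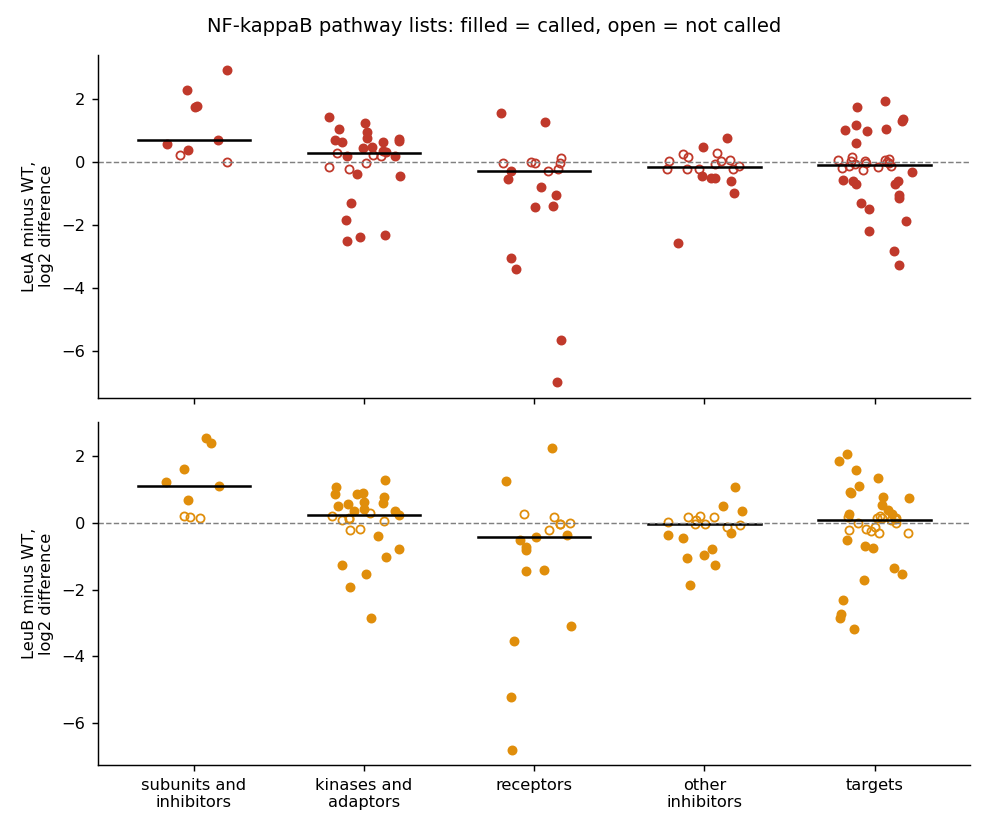
Log2 difference from WT (vertical axis) of each gene on the lists of NF-kappaB subunits and inhibitors, kinases and adaptors, receptors, other inhibitors and targets, for LeuA minus WT (top) and LeuB minus WT (bottom). Each point is a gene, filled where called, and bars are list medians. The subunits and inhibitors have medians of 0.72 and 1.08, and the receptors of -0.29 and -0.41.

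Between LeuB and LeuA, 6 of the 38 targets were called higher in LeuB and 6 lower, and of the 29 kinases and adaptors 2 were higher and 4 lower. Of the 20 further inhibitors 2 were higher and 3 lower, and of the 19 receptors 1 was higher and 0 lower. Over all genes 6.91% were called higher in LeuB and 5.36% lower, 12.3% in all. LeuB exceeded LeuA in Cd44, an adhesion receptor, by 0.96 (limma adjusted p = 0.000283), in Tnfaip2 by 0.85 (0.00226), in Irak3 by 0.82 (0.000744), in Tirap by 0.78 (0.0106) and in Pdlim2 by 0.70 (0.0402). LeuB was lower in Gadd45b by a difference of -0.85 (limma adjusted p = 0.00312), in Irf1 by -0.66 (0.00226) and in Bcl3 by -0.66 (0.0393). Of the immediate early genes, Jun was lower in LeuB by -1.08 (0.0246) and Hspa1a, a heat shock gene, by -0.96 (0.0258). With the slide as a block, Tirap (0.199), Gadd45b (0.0720), Irf1 (0.0537), Bcl3 (0.347), Pdlim2 (0.220), Jun (0.338) and Hspa1a (0.203) no longer passed, while Cd44 (0.00424), Tnfaip2 (0.0450) and Irak3 (0.0205) did. On slide 1 alone Tnfaip2 no longer passed either (0.0893). Single arrays also decided some of these calls: that of Bcl3 was lost without LeuB 2, LeuB 3, LeuA 2, LeuA 3, WT 2 or WT 3, at adjusted p-values of 0.0568 to 0.146, and that of Pdlim2 without any 1 array but LeuA 3, at 0.0511 to 0.143. The call of Jun was lost without LeuB 2, LeuB 3 or any 1 LeuA array, at 0.0528 to 0.0852, and that of Hspa1a without LeuB 2, LeuB 3 or LeuA 3, at 0.0663 to 0.101.

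The genes whose profile over the 9 arrays was most like that of Relb were Mavs, Rnf222, Ap5s1 and Prdx3, by the root mean square distance between log2 profiles centred per gene, which was 0.093, 0.115, 0.116 and 0.128. Mavs averaged 13.71 in LeuA, 13.29 in LeuB and 10.67 in WT. For Nfkb2 the most similar were Glipr2, Banp, Rmdn3 and Abcb6, at 0.078, 0.096, 0.096 and 0.097. None of the 8 is among the 106 measured genes of the pathway lists used here, and links to the pathway beyond those lists were not examined. The Relb profile is that of the probe with the higher mean, and the second Relb probe did not show its rise.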

How the data were processed

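Total RNA of the sorted cells was hybridised with Cy3 to the arrays, per the labels' protocols. The values used are log2 intensities that the authors normalized before they deposited them. RMA, affy and limma are named without version or role, per the submitters' processing notes, and background correction and detection flags are not given in the sources used here. A further quantile normalization moved no value by more than 0.0603, so the deposited values were used as they stand. Genes with a single symbol came from 24877 of 37877 probes, and 13000 had no symbol in the annotation used. Of the named probes, 24606 matched the mouse gene names supplied by identifier, which changed 0 symbols. The probe with the highest mean stood for each of the 2637 genes with more than 1 probe.

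Group means were fitted to all 9 arrays with limma 3.58.1 (lmFit and eBayes, two-sided) in R 4.3.3 with the package data.table (version 1.17.8), and p-values were adjusted by Benjamini-Hochberg over 21872 genes. The fit had 6 residual and 3.00 prior degrees of freedom, and the procedure was tested on simulated data. Precision is set by the number of arrays, which have no read depth, and p-values measure the spread between these arrays. Arrays of 1 group correlated at 0.991 to 0.997. Deviations of same-numbered arrays in different groups correlated at -0.041 to 0.103 over 9 pairs, 1 of them over 0.1, so replicate numbers were not treated as pairs.

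The members and the gene and marker lists were chosen with earlier results of these data known. All members are named. From each list, up to 4 called genes with the largest mean difference from WT and up to 2 with the largest LeuB minus LeuA difference are named, if their highest group mean exceeded 7.53, the median of all gene means. Single marker genes were named after their values were seen, and other names are marked as chosen afterwards. Alternatives were leaving out each array, the slide as a block, slide 1 alone, replicate blocks, other normalization and probe rules, dropping dim genes, eBayes with trend, and fitting only the groups compared. Leaving out WT 1 and LeuB 3 was added after seeing the data. Promoter windows are from RefSeq, build GRCm38.p6, and were searched on both strands.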

Additional observations from a re-analysis of the deposited data

Results flagged for a closer look

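The direct test of LeuB against LeuA separated the leukaemias in 4 of the measured NF-kappaB genes. The LeuB minus LeuA difference was -0.55 for Nfkb2 (limma adjusted p = 0.00273), -0.39 for Relb (0.0366), -0.25 for Nfkbib (0.0235) and 0.37 for Nfkbie (0.0308). LeuB 2 and LeuB 3 share a slide with no other array, and on slide 1, where LeuB has a single array, the differences were -0.45, -0.37, -0.28 and 0.26, with 0 of the 4 passing the test.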

How the results depend on the processing

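The calls of Nfkb2, Rela, Relb, Nfkbie, Tnfaip3 and Traf1 against WT in both leukaemias, and of Nfkbib in LeuA, held under all 19 alternative fits, and the exception was the second Relb probe (0.08 in LeuA and -0.26 in LeuB), for which the cause was not tested. Leaving out 1 array gave 7073 to 8591 genes called in LeuA against WT, with 7 to 8 members and 61 to 71 genes of the pathway lists, and 8003 to 10822 in LeuB against WT, with 6 to 7 members and 62 to 74 genes. LeuB against LeuA moved more. In place of 2683 genes it gave 1380 without LeuB 2 and 5498 without LeuB 1, with 1 to 5 members called, 0 to 2 higher and 1 to 3 lower, and 13 to 36 genes of the pathway lists. The slide as a block gave 869 genes, 5 of them on the pathway lists, and slide 1 alone gave 581 and 4. Both gave 0 members by limma, 0 higher and 0 lower, while at an unadjusted p under 0.05 they gave 0 higher with 3 lower and 0 higher with 2 lower. LeuB then rests on 1 array. Fitting only the groups compared gave 1783 genes, and leaving out WT 1 and LeuB 3 gave 1409, with 15 and 14 genes of the pathway lists and in both cases 1 member, 0 higher and 1 lower, and the cause was not tested. With the replicate number as a block, 3 members were called between the leukaemias, 1 higher and 2 lower, and Relb no longer passed (adjusted p = 0.0573). The numbers do not pair the arrays. Rel has no value where dim genes are left out. Signal near the low end limits what can be read for Rel and for the other named genes with a group mean below 7.02.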
